A study of Mus musculus with 12 samples.

Results

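The 6 acute phase genes Saa1, Saa2, Saa3, Hp, Lbp and Lrg1 were followed in the colon and the whole blood of C57BL/6 mice in a study of dextran sulfate sodium (DSS) colitis, a model of ulcerative colitis (UC). The members were chosen by gene name in the deposited normalised tables. All 6 were found in both, among 32689 genes of the colon table and 25514 of the blood table. Total RNA was sequenced from both tissues of 6 males aged 8 weeks, which the study had picked by disease activity from a larger set. Per the labels, mice 1, 2 and 4 had UC and took 1.5% DSS in their drinking water for 7 days before regular water, and mice 7, 8 and 9 were controls on the same water without DSS. All were killed on day 8. Each tissue thus had 3 libraries labelled UC and 3 labelled control, each from a separate mouse. DSS is a chemical injury to the colon lining, and whole blood mixes red cells, platelets and all leukocytes.

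Acute phase proteins are plasma proteins whose production changes within hours of infection or tissue injury. Interleukin-6 acting through STAT3, and interleukin-1 and TNF acting through NF-kB and C/EBP factors, switch their genes on. The liver is the main source of circulating acute phase proteins, but gut epithelium, adipocytes, macrophages and neutrophils also make some of them. Serum amyloid A (SAA) proteins are small lipid-binding proteins. Saa1 and Saa2 encode the forms that travel on high-density lipoprotein in mouse plasma, while Saa3 is mostly made outside the liver, in macrophages, adipocytes and gut epithelium. Hp encodes haptoglobin, which binds free haemoglobin and is also stored in neutrophil granules. Lbp encodes the lipopolysaccharide-binding protein, which hands bacterial lipopolysaccharide to CD14. Lrg1 encodes leucine-rich alpha-2-glycoprotein 1, a secreted protein that modulates TGF-beta signalling through endoglin and is also found in neutrophil granules.

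The SAA genes lie side by side on chromosome 7 of GRCm38, in the GENCODE annotation. Saa3 (ENSMUSG00000040026) was at chr7:46711998-46715700 and Saa1 (ENSMUSG00000074115) at chr7:46740497-46742980, both on the minus strand. Saa2 (ENSMUSG00000057465) was at chr7:46751790-46754313 on the plus strand, so that Saa1 and Saa2 are read away from each other. Hp (ENSMUSG00000031722) was at chr8:109575128-109579172 on the minus strand, Lbp (ENSMUSG00000016024) at chr2:158306493-158332852 on the plus strand and Lrg1 (ENSMUSG00000037095) at chr17:56119678-56122001 on the minus strand. All 6 are annotated as protein-coding.

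Coding sequences of the 3 SAA members are shown because their likeness decides how well reads of these genes can be told apart. Saa1 and Saa2 were identical at 348 of 366 aligned coding bases (95.1%), against 275 of 362 (76%) for Saa1 and Saa3. The first 150 bases from the start codon follow, taken from the first GENCODE transcript model of each gene, with capitals for the bases that differ from Saa1 (11 in Saa2 and 41 in Saa3).
Saa1: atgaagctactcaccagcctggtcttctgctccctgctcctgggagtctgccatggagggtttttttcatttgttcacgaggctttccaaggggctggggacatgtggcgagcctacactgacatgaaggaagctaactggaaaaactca
Saa2: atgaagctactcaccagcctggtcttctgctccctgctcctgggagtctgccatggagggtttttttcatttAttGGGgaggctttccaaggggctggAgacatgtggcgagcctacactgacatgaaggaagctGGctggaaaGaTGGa
Saa3: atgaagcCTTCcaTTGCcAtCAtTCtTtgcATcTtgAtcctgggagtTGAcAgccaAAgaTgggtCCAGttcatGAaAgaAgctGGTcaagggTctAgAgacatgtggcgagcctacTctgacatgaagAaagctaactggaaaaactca
Of the 560 stretches of 50 bases in the Saa1 transcript, 74 (13.2%) also occurred in a Saa2 transcript and 9 (1.61%) in a Saa3 transcript. A read inside such a stretch cannot be placed on sequence alone, and how the counting divided those reads was not tested. The Saa2 values below are therefore uncertain.

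Promoter sequence was held for 4 of the 6 members (Saa1, Saa2, Saa3 and Lrg1) in the RefSeq windows for GRCm38.p6, which run from 250 bases before to 50 bases after the RefSeq transcript start. The 3 SAA promoters are shown because Saa1 and Saa2, which were read at like relative levels across the colon libraries, can be set beside Saa3, which was not. The stretches stop at the GENCODE gene start and cover chr7:46742981-46743230 (minus strand) for Saa1, chr7:46751583-46751789 (plus strand) for Saa2 and chr7:46715701-46715926 (minus strand) for Saa3. Capitals mark matches to the C/EBP motif TTGCNNAA on either strand.
Saa1: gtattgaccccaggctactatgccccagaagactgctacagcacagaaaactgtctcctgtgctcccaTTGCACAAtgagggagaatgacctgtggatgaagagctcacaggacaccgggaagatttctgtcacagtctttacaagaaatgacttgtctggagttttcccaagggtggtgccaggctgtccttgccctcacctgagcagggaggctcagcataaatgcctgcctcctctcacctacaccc
Saa2: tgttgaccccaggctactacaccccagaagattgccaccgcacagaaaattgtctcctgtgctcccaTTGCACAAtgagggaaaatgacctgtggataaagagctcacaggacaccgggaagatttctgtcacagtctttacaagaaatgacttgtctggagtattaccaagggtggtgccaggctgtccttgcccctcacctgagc
Saa3: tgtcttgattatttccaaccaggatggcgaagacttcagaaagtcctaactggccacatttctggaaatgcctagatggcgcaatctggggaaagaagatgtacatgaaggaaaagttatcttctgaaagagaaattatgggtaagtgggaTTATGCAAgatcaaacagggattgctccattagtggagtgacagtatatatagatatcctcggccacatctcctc
The motif was matched in these 3 windows and not in that of Lrg1, while 10.8% of 32851 promoter windows held it. Its match began 182 bases before the RefSeq transcript start of Saa1, 183 before that of Saa2 and 99 before that of Saa3. Counted from the GENCODE gene starts, at which the printed stretches end, the distances were 182, 140 and 75 bases. The STAT motif TTCNNNGAA (8.3% of all windows) and the NF-kB core GGGNNTTTC (4.36%) were matched in none of the 4 windows on either strand. The 3 motifs were searched in both directions, and no matches overlapped. A match is a string of letters in this window and no evidence of binding. Only these fixed strings were searched, so the lack of a match does not show that a promoter lacks sites for the factor.

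The libraries were checked before the members were read. Total counts were 69181049 to 103662306 in the colon and 80867247 to 142536804 in the blood. A second label field gives the opposite tissue for every sample. In the libraries labelled colon by the tissue field, the epithelial keratin Krt8 had 303492 to 463694 normalised counts, against at most 75.3 in blood. The red cell gene Alas2 had 3828109 to 7241871 normalised counts in blood, against 447 to 3820 in colon, so the tissue field was followed. The disease labels were not matched by neutrophil genes. S100a8 in the colon libraries labelled UC had 5370, 33.1 and 22.3 normalised counts in mice 1, 2 and 4, and in those labelled control 1888, 75.6 and 13337 in mice 7, 8 and 9. The deposited normalised tables list the mice in the order 1, 7, 9, 2, 4 and 8. No library was moved to another group, and the groups are called by their labels throughout. Whether the disease labels name the treatment each mouse received was not tested. Each log2FC between the labels compares the libraries as labelled and is not to be read as an effect of DSS. The paper itself reports Saa3 among the most upregulated genes of its UC mice in colon and in blood. It also names HP among the genes it found upregulated in both tissues of mice and of patients. The groups as labelled did not show a called difference for either gene in either tissue below.

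Saa1 was the highest of the 6 in every colon library per length of gene, and it was near 0 in blood. A normalised count is the deposited count divided by a size factor of its library, set separately in each tissue. Colon Saa1 had 48977, 26873 and 78679 normalised counts in mice 1, 2 and 4 labelled UC, and 28609, 46927 and 56602 in mice 7, 8 and 9 labelled control. The highest library was thus 2.93 times the lowest, and the labelled groups overlapped. The mean was 51510 ± 25996 (SD, n = 3) under the UC label and 44046 ± 14217 (n = 3) under the control label. The fitted log2 fold change (log2FC, labelled UC over control) was 0.21 ± 0.432 (SE, edgeR adjusted p = 0.9999), so the difference was smaller than the spread between mice.

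Saa2 followed a like course in the colon at a far lower level. It had 412, 200.3 and 514 normalised counts in mice 1, 2 and 4 labelled UC and 254, 202 and 337 in mice 7, 8 and 9 labelled control. Mouse 4 was highest and mouse 2 lowest for both Saa1 and Saa2. The labelled groups of Saa2 overlapped, with a log2FC of 0.49 ± 0.413 (edgeR adjusted p = 0.9999). Saa2 counts were 0.43% to 0.888% of Saa1 counts in the same library. As 13.2% of the 50-base stretches of Saa1 also occur in Saa2, Saa1 reads may enter the Saa2 counts. Their part was not tested. Each gene's log2 values, after adding 1 to the normalised counts, were centred on their mean. The root mean square (RMS) difference between Saa1 and Saa2 over the 6 colon libraries was then 0.35.

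Saa3 was read in 3 colon libraries and at 0 in the other 3. It had 4701 normalised counts in mouse 1 and 0 in mice 2 and 4, all labelled UC, and 3256, 0 and 26328 in mice 7, 8 and 9 labelled control. A count of 0 allows up to 3 counts, which is 2.61, 2.47 and 3.78 normalised counts in the colon libraries of mice 2, 4 and 8 (counting error only). Each labelled group therefore held both high and absent libraries, and the spread within a label exceeded the difference between labels (log2FC -2.65 ± 3.1, edgeR adjusted p = 0.9999). The log2FC was -16.27 without mouse 1 and -0.09 without mouse 9, neither past the threshold. Without mouse 1 the libraries labelled UC were all at 0, so the size of -16.27 depends on the prior count that the fit adds. In the colon of mouse 9, Saa3 made up 30.5% of the summed normalised counts per kilobase of Saa1, Saa2, Saa3 and Saa4, against 8.3% in mouse 1 and 9.68% in mouse 7. Saa1 made up 69% in mouse 9, 90.9% in mouse 1, 89.4% in mouse 7 and at least 99.3% in mice 2, 4 and 8.

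Hp varied most among the members that were read in every colon library. It had 14627, 36.6 and 24.7 normalised counts in mice 1, 2 and 4 labelled UC, and 1607, 68.1 and 11116 in mice 7, 8 and 9 labelled control. The highest library was 591 times the lowest, and the third highest (mouse 7) was 23.6 times the fourth (mouse 8). The means were 4896 ± 8427 (SD, n = 3) under the UC label and 4264 ± 5984 (n = 3) under the control label, with a log2FC of 0.21 ± 2.36 (edgeR adjusted p = 0.9999). Mouse 1 decided that value. Without its colon library the log2FC was -7.11 and without mouse 9 it was 2.51, neither past the threshold.

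Lrg1 separated the same libraries in the colon but was highest in another mouse. It had 6363, 173 and 174 normalised counts in mice 1, 2 and 4 labelled UC, and 13670, 252 and 26490 in mice 7, 8 and 9 labelled control. The third highest value (mouse 1) was 25.2 times the fourth (mouse 8). The labelled groups overlapped because mouse 1 lay above mouse 8, and the log2FC was -2.59 ± 1.88 (edgeR adjusted p = 0.9999). Leaving out each mouse in turn gave log2FC values from -6.27 to -1.68. Per kilobase of exon, Lrg1 was 2.72 to 9.7 times Hp in 5 of the colon libraries. In mouse 1 the order was turned, with Hp at 2.02 times Lrg1.

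Lbp had the smallest of these gaps. It had 1810, 378 and 380 normalised counts in mice 1, 2 and 4 labelled UC and 3341, 413 and 4542 in mice 7, 8 and 9 labelled control. The 3 lower libraries lay within a narrow band, and the third highest value (mouse 1) was 4.38 times the fourth (mouse 8). Lbp was thus present in each colon library, as were Saa1 and Saa2. The labelled groups overlapped again (log2FC -1.70 ± 0.976, edgeR adjusted p = 0.9999), and with a mouse left out the log2FC ran from -2.87 (without mouse 1) to -1.17 (without mouse 9).

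**Figure D1:**
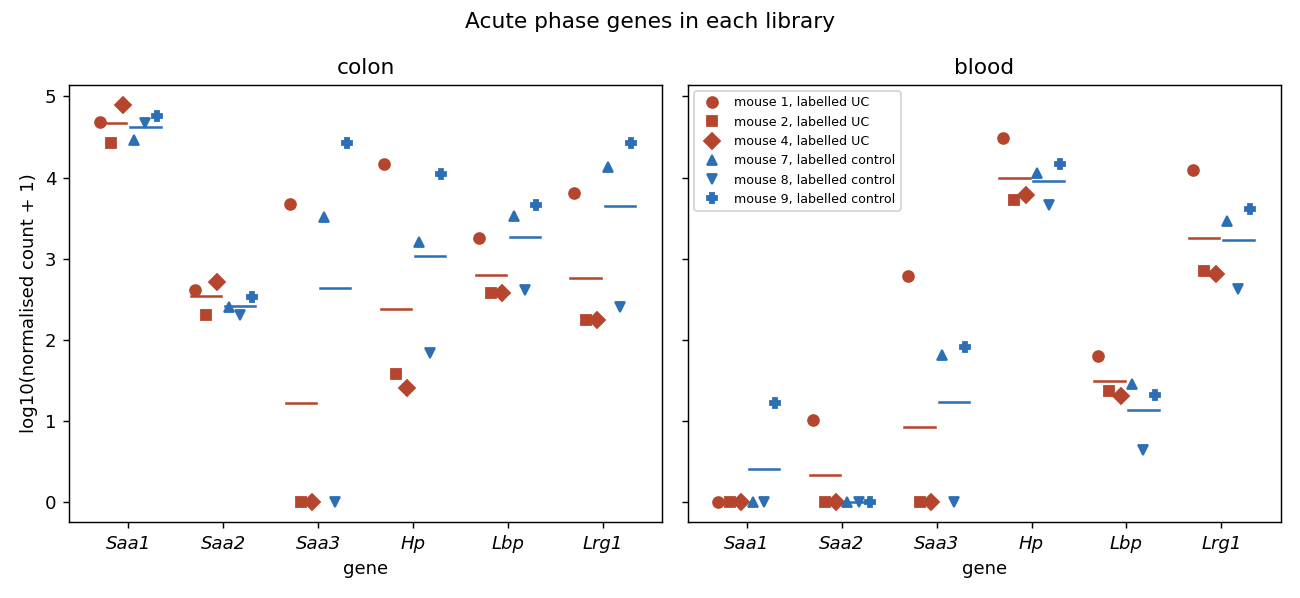
Normalised counts of the 6 genes in each library, on a log10 axis after adding 1, for colon (left) and blood (right). Red marks are libraries labelled UC, blue marks those labelled control, each mouse has its own symbol and bars are means of the log values by label. In the colon, Saa3, Hp, Lbp and Lrg1 were higher in mice 1, 7 and 9 than in mice 2, 4 and 8, across both labels, while Saa1 and Saa2 stayed within a range of 2.93 times.

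None of the 6 members was called in the colon between the labels (a call needed an adjusted p no higher than 0.05 with a log2FC beyond 1 in size), where 1 of 22238 tested genes was (0.0045%) and 313 had an unadjusted p under 0.05. DESeq2 called 6 genes and limma-voom 0, none of them a member. The members' median log2FC was -0.75, against -0.01 over all tested genes, with 3 members above 0 and 3 below. The labelled groups overlapped for all 6, while 5.66% of tested genes had groups that did not overlap. The 3 highest values lay in mice 1, 7 and 9 for 4 of the 6 members (Saa3, Hp, Lbp and Lrg1) and for 18.2% of tested genes. Of these, Saa3 was at 0 in the other mice and so passed the low-count filter through mice 1, 7 and 9. That grouping of mice was noticed in these values, crosses the labels and was not tested.

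In blood, Hp was the highest member per length, followed by Lrg1. Hp had 30409, 5316 and 6182 normalised counts in mice 1, 2 and 4 labelled UC and 11261, 4629 and 14854 in mice 7, 8 and 9 labelled control. It was read in each blood library, and the highest was 6.57 times the lowest. The labelled groups overlapped, with means of 13969 ± 14244 (SD, n = 3) and 10248 ± 5187 (n = 3) and a log2FC of 0.44 ± 0.708 (edgeR adjusted p = 0.9998). Without mouse 1 the log2FC was -0.82.

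Lrg1 in blood had 12252, 709 and 652 normalised counts in mice 1, 2 and 4 labelled UC and 2917, 424 and 4046 in mice 7, 8 and 9 labelled control. Mice 1, 9 and 7 were again the 3 highest, and the highest value was 28.9 times the lowest. The log2FC was 0.88 ± 1.18 (edgeR adjusted p = 0.9998), and without mouse 1 it was -1.84. Hp exceeded Lrg1 per kilobase of exon in each blood library. The ratio of Hp to Lrg1 was 2.18, 3.38 and 3.22 in mice 1, 7 and 9, and 6.57, 8.31 and 9.57 in mice 2, 4 and 8.

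Saa3 had the most counts of the SAA genes in blood. It had 610, 0 and 0 normalised counts in mice 1, 2 and 4 labelled UC and 63.6, 0 and 81.1 in mice 7, 8 and 9 labelled control. The mice with Saa3 counts in blood were those with Saa3 counts in colon, but mouse 1 was highest in blood and mouse 9 in colon. The log2FC of 2.05 ± 2.01 (edgeR adjusted p = 0.9998) rested on mouse 1, without which it was -8.67. With the libraries labelled UC then all at 0, the size of -8.67 depends on the prior count.

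Lbp was low in blood, with 62.1, 22.6 and 19.6 normalised counts in mice 1, 2 and 4 labelled UC and 27.6, 3.45 and 19.9 in mice 7, 8 and 9 labelled control. Its log2FC was 1.01 ± 0.809 (edgeR adjusted p = 0.9998), and the groups overlapped. It was 0.30 without mouse 1 and 1.55 without mouse 7. Saa1 had 15.7 normalised counts (19 counts) in the blood of mouse 9, labelled control, and 0 in the other 5. Saa2 had 9.48 (9 counts) in the blood of mouse 1, labelled UC, and 0 in the other 5. In the blood of mouse 9 the colon epithelial genes Krt8 and Muc2 had 72.8 and 30.6 normalised counts. In that of mouse 2, with Saa1 at 0, they had 75.3 and 33.1, and their part in the Saa1 counts was not tested. Saa1 and Saa2 were too low in blood to pass the filter on low counts and were not tested there.

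None of the 4 blood members tested was called between the labels, nor was any of 16759 genes by edgeR (0%), of which 241 had an unadjusted p under 0.05. DESeq2 called 6 genes and limma-voom 0, again without a member. The median log2FC of the 4 members was 0.94, against 0.04 over all tested genes. For none of the 4 did the labelled groups separate, as they did for 6.5% of tested genes. The 3 highest values lay in mice 1, 7 and 9 for Saa3, Hp and Lrg1, and for 11.8% of tested blood genes. Of these, Saa3 was at 0 in the other mice and so passed the low-count filter through mice 1, 7 and 9.

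**Figure D2:**
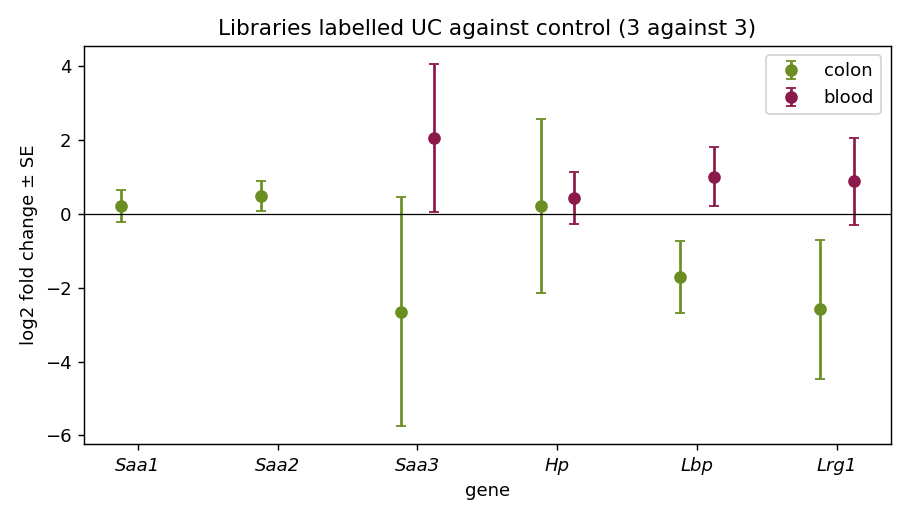
Fitted log2FC of libraries labelled UC over control (y axis, edgeR, bars are SE) for each gene in colon (green) and blood (purple). Saa1 and Saa2 have no blood value because they did not pass the low-count filter. Saa3, Lbp and Lrg1 lay below 0 in colon and above 0 in blood, none past the threshold.

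The effect of the label was compared between the tissues as an interaction over all 12 libraries. The difference of log2FC, colon minus blood, was -4.71 ± 4.15 (SE) for Saa3, -0.24 ± 2.7 for Hp, -2.70 ± 1.36 for Lbp and -3.48 ± 2.46 for Lrg1. None passed the threshold (edgeR adjusted p = 1 for each), where 1 of 23258 genes did (0.0043%). The count of members called was 0 also with the mouse number as a block. With Saa1 and Saa2 at or near 0 in blood, no difference is given for them.

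Between the tissues the members split. Levels were set on a common scale as TMM-scaled CPM, the counts of a gene over the scaled library total over all 12 libraries, and each value is a level in that scale. Saa1 had 275 ± 108 CPM in colon (SD, n = 6) and 0.0452 ± 0.111 in blood (n = 6). Saa2 had 1.84 ± 0.711 and 0.0279 ± 0.0683 CPM. Lbp had 10.5 ± 10.4 and 0.454 ± 0.346 CPM, and in each mouse it was higher in colon, by 5.55 to 77.3 times. These 3 were called higher in colon, with edgeR adjusted p = 3.7e-06 for Saa1, 0.000157 for Saa2 and 0.000387 for Lbp, in a comparison in which 37.7% of tested genes were called in that direction. For Lbp the log2 difference was 4.25 ± 0.745 (SE). For Saa1 and Saa2 the fitted log2 difference depends on the prior count, since 5 of 6 blood libraries were at 0, and the ratio of the mean CPM was 6081 and 66 respectively. The part of Saa1 reads in the colon level and the call of Saa2 was not tested.

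Hp was higher in the blood than in the colon of each of the 6 mice. Its mean was 212 ± 173 CPM in blood and 26.6 ± 38 in colon. The ratio of blood to colon was 6.33, 21.6 and 3.95 in mice 1, 7 and 9, and 438, 774 and 204 in mice 2, 4 and 8. The log2 difference, colon minus blood, was -3.10 ± 1.46 and did not pass the threshold without a block (edgeR adjusted p = 0.0779), where 20.8% of tested genes were called higher in blood. It was -6.15 ± 1.34 (edgeR adjusted p = 0.00585) with the mouse number as a block, the fit that pairs the tissues of a mouse.

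Lrg1 had no common direction, being higher in colon in mice 7 and 9 (1.52 and 2.21 times) and higher in blood in mice 1, 2, 4 and 8 (5.04 to 12.3 times). Its mean was 45.7 ± 61.7 CPM in colon and 61.5 ± 79.9 in blood. The log2 difference was -1.0 ± 1.21 (edgeR adjusted p = 0.475), and -1.77 ± 0.456 (edgeR adjusted p = 0.0119) with the block. It turned to 1.13 when libraries were scaled by their totals alone, a scaling that moved the median of all genes from 0.46 to 2.57. Against that median, Lrg1 was lower by either scaling.

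Saa3 was higher in colon in the 3 mice in which it was read, at 2.53, 16.6 and 110 times the blood level in mice 1, 7 and 9. The log2 difference was 3.58 ± 2.18 (edgeR adjusted p = 0.163) without the block and 3.25 ± 0.686 (edgeR adjusted p = 0.0157) with it. In the paired fit all 6 members were called, 4 higher in colon, as were 35.5% of tested genes, and 2 (Hp and Lrg1) higher in blood, as were 19.9%. The tissues differ also in RNA kit and in the depletion of ribosomal and globin RNA, which cannot be told apart from the tissue. In bulk samples, fewer cells of a type and less RNA per cell cannot be told apart either.

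**Figure D3:**
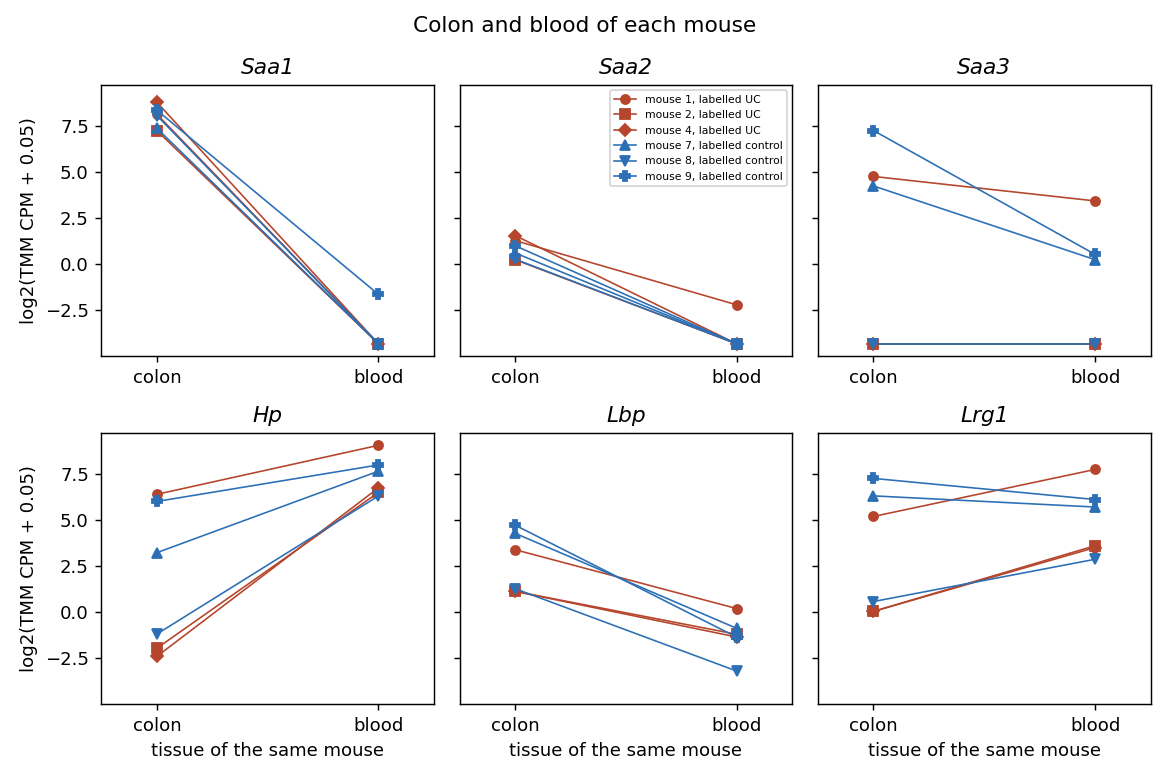
Level of each gene in the colon and blood of each mouse, as log2 of TMM-scaled CPM after adding 0.05, with lines joining the libraries of a mouse (red, labelled UC; blue, labelled control). Saa1, Saa2 and Lbp lay higher in colon and Hp higher in blood in all 6 mice, while the Lrg1 lines ran both ways.

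Levels were compared between genes per kilobase of exon. In the colon, Saa1 had a mean of 19281 ± 7740 normalised counts per kilobase (SD, n = 6) and ranked 147 of 32647 genes. It was followed by Lrg1 (5578 ± 7510), Hp (2852 ± 4076), Saa3 (2193 ± 3950), Lbp (375 ± 369) and Saa2 (127 ± 49.9). The spreads of Lrg1, Hp and Saa3 were larger than the gaps between them, so their order among themselves is not settled by these libraries. In the blood, Hp had 7540 ± 6103 normalised counts per kilobase and ranked 230 of 25483, ahead of Lrg1 (2486 ± 3217), Saa3 (48.2 ± 92), Lbp (5.35 ± 4.04), Saa1 (1.06 ± 2.59) and Saa2 (0.627 ± 1.54). Gene length was the union of all annotated exons, which for the SAA genes includes long models that retain introns. Per kilobase of the first coding transcript model (609 bases for Saa1 and 555 for Saa3), colon Saa1 was at 78453 ± 31494 and Saa3, at 10296 ± 18550, moved ahead of Lrg1.

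Likeness was measured as the RMS difference of centred log2 values, after adding 1 to the normalised counts, over the 6 libraries of a tissue. Genes most like each member were those with the smallest difference, among genes with a mean of at least 50 normalised counts, as a description. For colon Hp these were Dmgdh (0.53), S100a8 (0.59) and Wfdc21 (0.73). For colon Lrg1 they were Serpina3n (0.42), the acute phase protease inhibitor, Il22 (0.48) and A730049H05Rik (0.53). Those for colon Lbp were Kcne4 (0.14), Siglece (0.15) and Csf2rb2 (0.16). Saa3 had no gene closer than Prss22 (1.75), Plet1 (1.76) and Retnlb (1.81), on a scale where Saa3 itself varied by an SD of 7.11. Colon Saa1 was nearest to Gm6329 (0.14), Zfp455 (0.16) and AA467197 (0.20), and Saa2 to Zfp354a (0.15), Ppbp (0.18) and Gm18537 (0.19). In blood, Hp was nearest to S100a6 (0.05), Hdac4 (0.07) and Gm14548 (0.10). Blood Lrg1 was nearest to Mgam (0.15), Lin28a (0.22) and Ifnlr1 (0.22), and Saa3 to Gpr27 (0.25), Prok2 (0.31) and Nos2 (0.83). Hp and Lrg1 differed from each other by an RMS of 1.41 in colon and 0.79 in blood. Members whose values vary little have near neighbours more readily, so the distances are not comparable across members. Saa3 in both tissues and Il22 in colon were at 0 in mice 2, 4 and 8. Their distances, and the SD of Saa3, therefore depend on the 1 that was added.

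Most of the other acute phase genes that were tested varied across the colon libraries much as Lrg1 did. Of 20 genes listed, 11 were tested in the colon and 0 were called in either direction, where 1 of all 22238 tested genes was. Their median log2FC was -1.64, against -0.01 over all tested genes. All 11 lay below 0 (from -2.85 to -0.56). For 10 the 3 highest values were in mice 1, 7 and 9, as for 18.2% of all tested genes. Saa4, Fgb and Itih4 were at or near 0 outside those mice and so passed the low-count filter through them. Among genes below the filter, Crp, Hpx, Hamp and Orm1 had another mouse among their 3 highest. Orm3 was read only in mice 1, 7 and 9, and Orm2, Fga and Fgg only in mice 1 and 9. Serpina3n had 18549, 539 and 641 normalised counts in mice 1, 2 and 4 labelled UC and 22793, 490 and 51217 in mice 7, 8 and 9 labelled control. C3, the central complement component and the gene of the list with the highest mean count, had 48288, 4501 and 4621, then 24571, 3817 and 57232. The exception was Il1rn, the interleukin-1 receptor antagonist, lowest in mouse 1 at 1989 and highest in mouse 8 at 6780.

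In the blood 4 of the 20 were tested and 0 were called, where 0 of all 16759 tested genes were. The median log2FC of the 4 was 0.32, against 0.04 over all tested genes. Lcn2, the neutrophil iron-siderophore binder, had the highest mean of these, with 9234, 169 and 170 normalised counts in mice 1, 2 and 4 labelled UC and 774, 182 and 1886 in mice 7, 8 and 9 labelled control. The classical human acute phase protein gene Crp had at most 7.59 normalised counts in any colon library. The fibrinogen genes Fga, Fgb and Fgg had at most 74.7 there. Orm1 reached 119 normalised counts in the colon of mouse 9 and 24.2 in the blood of mouse 1.

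Of 17 genes for the cytokines, receptors and factors that induce acute phase genes, 17 were tested in colon and 14 in blood. The number called was 0 in each (median log2FC -1.06 and 0.17), where 1 of 22238 genes was called in colon and 0 of 16759 in blood. Il6 had 314, 0 and 0 normalised counts in the colon of mice 1, 2 and 4 labelled UC and 173, 0 and 1477 in mice 7, 8 and 9 labelled control. The libraries with Il6 counts were those with Saa3 counts. Il22 was likewise read in mice 1 (62.5), 7 (137) and 9 (150) and at 0 in the other 3. Socs3, a feedback inhibitor induced by STAT3, had 6641, 503 and 360 under the UC label and 11260, 368 and 14614 under the control label. Stat3 itself, the list's highest by mean count in colon, ranged only from 10343 to 21866. Blood Il6 was at most 23, and Il1b, the list's highest in blood, ranged from 4822 to 15643.

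Of 11 genes for receptors and partners of the members' proteins, 11 were tested in colon and 10 in blood. The number called was 0 in each (median log2FC -0.42 and 0.21), where 1 of 22238 genes was called in colon and 0 of 16759 in blood. Fpr2, a formyl peptide receptor that binds serum amyloid A, had 255, 22.6 and 12.4 normalised counts in the colon of mice 1, 2 and 4 and 243, 13.9 and 1004 in mice 7, 8 and 9. Cd163, the macrophage receptor for haptoglobin-haemoglobin complexes, had 516 to 2195 in colon and at most 40.0 in blood, where it was not tested. Cd14, which takes lipopolysaccharide from Lbp, had 1214 to 9494 in colon and 136 to 2548 in blood. The highest by mean count were Tgfbr2 in colon (10432 to 15980) and the scavenger receptor Cd36 in blood (16810 to 39911).

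Cell type markers moved with several members. The summed normalised count of 12 neutrophil markers in colon was 39414, 8113 and 17284 in mice 1, 2 and 4 labelled UC and 30007, 18484 and 75972 in mice 7, 8 and 9 labelled control, the higher 3 being those with high Hp, Lrg1, Lbp and Saa3. Ly6g held nearly all of that sum in mice 2, 4 and 8, at 7350, 16355 and 17455, and a smaller part in mouse 9, at 25479. S100a8 had 33.1, 22.3 and 75.6 in mice 2, 4 and 8, so the sum varied far less than S100a8 did. In blood the sum, of which S100a9 was the largest single part in each library, was 500860, 58504 and 51119 under the UC label and 160455, 43274 and 364033 under the control label, in which mice 1, 9 and 7 were the highest, as for blood Hp, Lrg1 and Saa3. Of the 12 markers, 11 in colon and 10 in blood had their 3 highest values in mice 1, 7 and 9 (only 11 were tested in colon). The same held for 18.2% of all tested genes in colon and 11.8% in blood. In colon, Cxcr2, Mmp8 and Ngp were at or near 0 outside mice 1, 7 and 9 and so passed the low-count filter through them. That grouping of mice was itself noticed in the values of these libraries. The part of neutrophils in the members' values was not tested.

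The 6 adipocyte markers summed to 13749 normalised counts in the colon of mouse 1, against 1117 to 2891 in the other 5. Adipoq alone had 1309 there against 76.7 to 144, and Cfd, the highest by mean count, 7955 against 331 to 1216. That is the colon library in which Hp exceeded Lrg1, and the part of adipose tissue in its Hp value was not tested. In blood 3 of the 6 were in the table, Lipe being the highest (287 to 1019), with Adipoq at 0 in 5 libraries. Monocyte and macrophage markers (8 genes) summed to 17937, 26069 and 26929 in the colon of mice 1, 7 and 9 and to 8852 to 10377 in mice 2, 4 and 8, and to 6403 to 12992 in blood. The highest by mean count were Mrc1 in colon (2397 to 7848) and Ccr2 in blood (1972 to 5250).

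Hepatocyte markers were low. In colon 7 of 8 were in the table, summing to 312 to 2995. Ttr gave most of the sum in mice 2, 4 and 8 (2159 to 2712) and Cyp2e1 (1845) in mouse 1, while the defining gene Alb had at most 72.3, with 0 in mice 7 and 9, and Serpina1a at most 9.47. In blood 2 of 8 were in the table, Apoa2 (at most 8.42) and Alb (at most 11.6), summing to at most 20.0. Where Saa3, Hp, Lbp and Lrg1 were highest in colon, the hepatocyte sum was 312 to 2056, and in the other 3 libraries 2402 to 2995. That difference followed Ttr, which had 155, 190 and 277 in mice 1, 7 and 9. The part of liver cells in the members' values was not tested. The 8 colon epithelium markers summed to 842431 to 2518420 in colon. Muc2 had the highest mean of these, but was above Krt8 only in mice 1 and 7. In blood 7 of the 8 were in the table, and Car1 (173 to 304) was the highest by mean count. The 7 squamous epithelium markers summed to 186 to 599 in colon, where the highest mean, that of Dsg3, rested on mouse 9 (487) and mouse 7 (158), and in blood Trp63 was the highest at no more than 4.52. Red cell markers (4 genes, most of the counts in Alas2) summed to 516 to 4005 in colon. No gene of the marker lists was called between the labels in either tissue, where 1 of 22238 genes was called in colon and 0 of 16759 in blood.

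**Figure D4:**
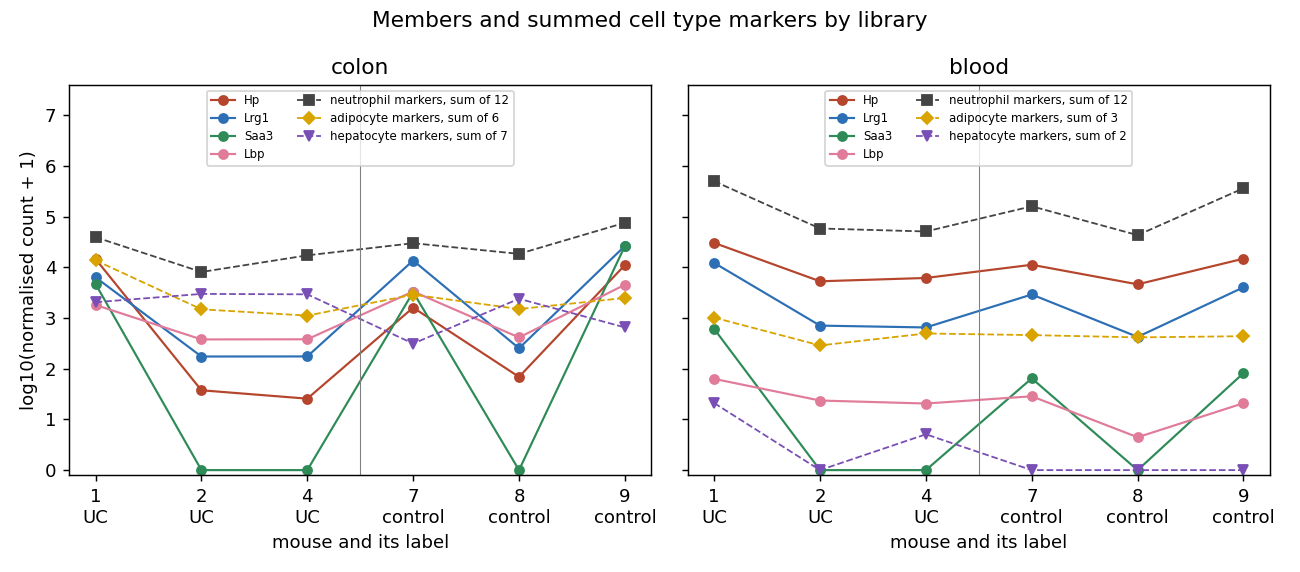
Normalised counts (log10 after adding 1) of Hp, Lrg1, Saa3 and Lbp (solid lines) beside the summed counts of neutrophil, adipocyte and hepatocyte markers (dashed lines) in each library, for colon (left) and blood (right). Mice are ordered by number, with the label under each, and lines join libraries only as a guide. In colon the adipocyte sum peaked in mouse 1 at 13749, and in both tissues the neutrophil sum was highest in mice 1, 7 and 9.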

How the data were processed

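Per the labels and the study's methods, the authors removed ribosomal RNA (colon) or ribosomal and globin RNA (blood), aligned reads to GRCm38 (STAR) and took gene levels from StringTie 1.3.4c with the Ensembl 92 annotation and no strand set. The authors' deposited count table holds whole counts derived from transcript coverage. The deposited normalised tables are a signal scale, the count divided by 1 size factor per library, which was recomputed and held for 100% of genes. Since each tissue was normalised alone, normalised counts were tested and ranked within a tissue only, and compared across tissues only for the check of tissue markers. Where normalised counts of a gene or list are given for both tissues, they are on separate scales and do not measure a tissue difference. Between 39.1% and 67.9% of the counts of a blood library, and 8.63% to 18.8% of those of a colon library, lay in genes outside these tables. One red cell gene is not reported here.

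Counts were tested with edgeR 4.0.16 in R 4.3.3 (TMM, filterByExpr, quasi-likelihood test, Benjamini-Hochberg adjustment over all tested genes), each tissue alone for the labels, and all 12 libraries for the interaction and for colon against blood. SE is the log2FC over the square root of F. The limits that a count of 0 allows cover counting error only. Alternatives used DESeq2 1.42.0, limma-voom (limma 3.58.1), other scalings and filters, each mouse left out, and the mouse number as a block. Both tissues came from the same 6 mice per the study, and the titles share numbers. Deviations from group means correlated between same-numbered libraries at r = 0.020 to 0.269 over 15802 genes. The steps were tested on simulated data of smaller spread than these libraries, whose fitted biological coefficient of variation was 0.503 in colon and 0.417 in blood, so the test does not show what changes could be found here.

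The members and lists were chosen with earlier results of these data known. Named were all members, the listed genes that were called or had a list's highest mean, and the 3 genes most like each member with a mean of at least 50. Any other listed gene in the text was picked with its values in view. Coding sequences came from GENCODE mouse release 21 and were aligned with Biopython 1.88.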

Additional observations from a re-analysis of the deposited data

How the results depend on the processing

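No member was called between the labels in colon, in blood or in the interaction under any alternative run, leaving out each mouse in turn included (0 in each). Between the tissues 3 members were called, and 3 to 4 with a mouse left out. With DESeq2, limma-voom or library size only 4 were called, and 6 with the mouse number as a block. The added member was Hp with DESeq2 and limma-voom, but Saa3 with library size only. Calls were common among all 23258 tested genes. The main fit called 13604, DESeq2 13680, limma-voom 13632, library size only 19644 and the block 12889. Of the 6 members called with the block, Saa3 rested on mice 1, 7 and 9. In the interaction the paired fit with the block called 0. Of 276 alternative values of single members, 255 kept direction and call, 7 came to pass the threshold and 14 turned direction. No member was called for the labels or the interaction in the main fit, so keeping the call there shows little. A value could also keep both while its size changed widely. The 255 include Saa3 without mouse 1 in colon against blood and in the interaction, with an SE of 31300.5 and 56817.5. In colon, Saa3 ran from -16.27 to -0.09 with a mouse left out, and Hp turned to -2.48 with limma-voom and ran from -7.11 to 2.51 with a mouse left out (-7.11, -0.18 and -0.37 without mice 1, 7 and 8), and Saa1 ran from -0.23 to 0.52 (-0.23 and -0.02 without mice 4 and 7). In blood, Hp turned to -0.17 with library size only and ran from -0.82 to 0.83, Lrg1 from -1.84 to 1.44, and Saa3 from -8.67 to 2.64, each lowest without mouse 1, and Saa3 was -1.91 with limma-voom. The interaction of Hp was 0.21 with library size only and ran from -6.28 to 1.71, the latter without mouse 9. Lrg1 in colon against blood turned to 1.13 with library size only, and Hp passed the threshold there without mouse 1 (-6.11, edgeR adjusted p = 0.00167). Apart from fewer samples or another scaling, the cause was not tested. The sizes of -16.27 and -8.67 for Saa3 depend on the prior count, since without mouse 1 the libraries labelled UC were at 0. Saa1 and Saa2 in blood rest on 19 and 9 counts in all.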
